A study of Rattus norvegicus with 6 samples.

Results

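Described here are 10 genes with which the lining of the gut meets microbes, read in the colons of carcinogen-treated rats of a congenic strain and its parent strain. They encode secreted proteins that bind or starve bacteria (Dmbt1, Reg3g, Reg3b and Lcn2), the receptor that carries immunoglobulin A across the epithelium (Pigr), enzymes that make oxidants and nitric oxide (Duox2, its maturation factor Duoxa2, and Nos2), a phospholipase that attacks bacterial membranes (Pla2g2a) and an inhibitor of neutrophil proteases (Slpi). The genes were selected on the measured log2 signals of these same 6 arrays, that is, on the difference between the strains and on the scatter between rats, so their values are given as a description and without a test. They are 10 of the 15168 genes that could be named on the array, and 9 of them are among the 12396 genes with a probe bright enough to enter the comparison. Reg3b was too dim. Together the 10 genes have 11 probes, 2 of them for Dmbt1.

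The S rat is the inbred Dahl salt-sensitive strain (SS/Jr), which becomes hypertensive, and the S.LEW(10)x12x2x3x5 congenic strain carries a short piece of chromosome 10 of the Lewis rat on the S background. There were 3 male rats of each strain, C1, C2 and C3 for the congenic strain and S1, S2 and S3 for the S strain, with 1 array per rat. Every rat ate a low-salt diet from weaning. Azoxymethane (AOM, 15 mg per kg), given to induce colon tumors, was injected into the peritoneum weekly, 2 times in all, starting at 6 weeks. Each rat then shared its cage with a rat of the other strain until the colons were collected at 30 weeks. No rat without AOM is among the samples, so the values hold for treated colons only. RNA was made from the opened and rinsed colon, a mixture of epithelium, muscle and lymphoid tissue. The sources used here give neither the shares of these tissues nor whether tumor was included. Fewer cells of a type and less RNA per cell cannot be told apart in such samples.

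The arrays differed in brightness, with a median intensity from 214 (C2) to 594 (S1). Signals are given on the log2 scale after quantile normalization, so that a difference of 1 is a 2-fold difference. With 3 rats per strain the precision of every value below is low.

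One S rat stood apart from the others of its strain. The array of S2 had its lowest correlation over all probes with that of S1 (0.900), and every congenic array was closer to it (0.967 or above) than S3 was (0.936). For each of the 9 comparable genes the difference is therefore given without S2 too. The arrays came from 2 scans, per the file headers, with C1 and all S rats in the first and C2 and C3 in the second. A comparison within a scan is thus possible only for C1 against the 3 S rats, so it rests on 1 congenic rat. It is given for the same 9 genes and for some genes of the pathway lists.

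The colon epithelium is separated from its bacteria by mucus and by proteins that epithelial cells secrete into it. Many of these proteins are made at a low level in the resting gut and in larger amounts when cytokines such as Il22 and Il17a, or bacterial products themselves, reach the epithelium. Immunoglobulin A from plasma cells below the epithelium and oxidants made at its surface add to the barrier.

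The 10 genes did not share one pattern. In Dmbt1 and Lcn2 all congenic rats were above all S rats. Pigr, Duox2, Duoxa2 and Nos2 were lowest in S1, and S2 lay within the range of the congenic rats. Slpi and Reg3g were high in S1 and S3 and lower in S2 than in any congenic rat, and Pla2g2a was highest in S3 and S1. Thus 2 of the 9 comparable genes did not overlap between the strains with the congenic rats above, which was also true of 14.2% of all 12396 genes, and none of the 9 did so with the congenic rats below, as 4.98% of all genes did. Since the genes were chosen by these very values, nothing is read from those shares.

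**Figure D1:**
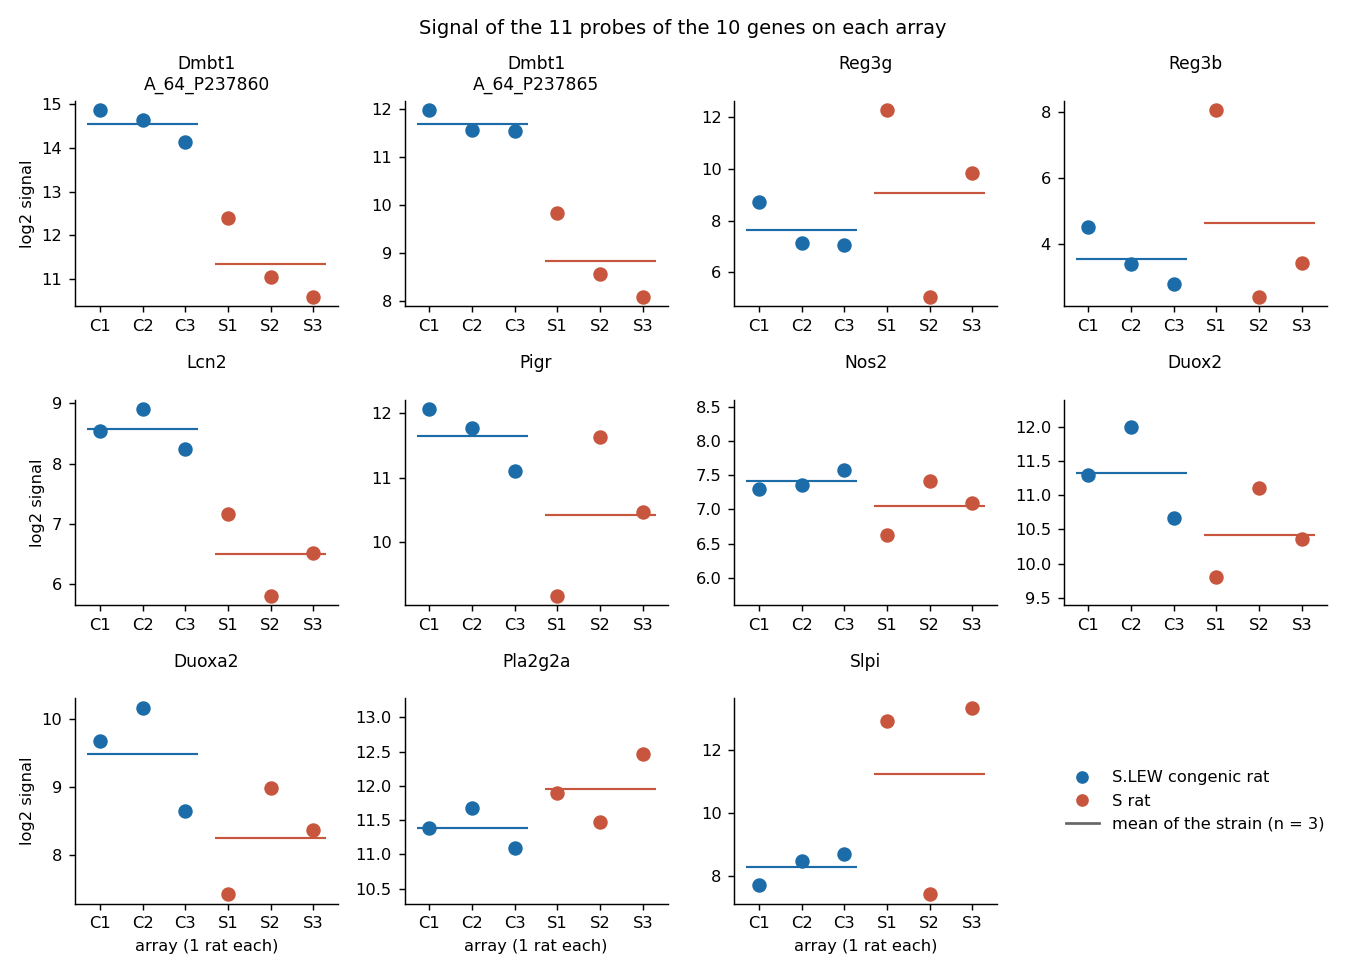
Log2 signal (vertical axes) of the 11 probes on each of the 6 arrays, with 1 point per rat, blue for S.LEW congenic and red for S, and a line at the mean of each strain (n = 3). The strains are apart at both Dmbt1 probes and at Lcn2, while S1 and S3 tower over the other rats at Slpi.

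Dmbt1 encodes a large scavenger-receptor protein of mucosal surfaces that binds and agglutinates bacteria. At its brighter probe (A_64_P237860), which was assigned through an Ensembl transcript, the log2 signal was 14.87 (C1), 14.64 (C2) and 14.15 (C3), and 12.39 (S1), 11.05 (S2) and 10.59 (S3). Every congenic rat was above every S rat, with a gap of 1.76 between the lowest congenic and the highest S rat. The means were 14.55 ± 0.37 (SD, n = 3) and 11.34 ± 0.94 (SD, n = 3), a difference of 3.21 on the log2 scale or 9.25-fold. The dimmer probe (A_64_P237865) read 11.97, 11.56 and 11.54 in C1, C2 and C3 and 9.83, 8.57 and 8.09 in S1, S2 and S3. It ranked the S rats in the same order and gave a difference of 2.86, or 7.26-fold. C1 against the S rats of its own scan gave 3.53 at the brighter and 3.14 at the dimmer probe. Whichever rat was left out, the difference at the brighter probe stayed between 2.83 and 3.73. Without S2 it was 3.06, and 2.73 at the dimmer probe, and S2, although close to the congenic arrays as a whole, lay at -3.50 relative to their mean here.

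Lcn2 encodes lipocalin 2, which binds the siderophores that bacteria use to take up iron. Its log2 signal was 8.55 (C1), 8.91 (C2) and 8.24 (C3), against 7.16 (S1), 5.80 (S2) and 6.51 (S3). As with Dmbt1, the congenic rats were all higher, S1 was the highest S rat, and S2 did not join the congenic level. The means were 8.57 ± 0.33 (SD, n = 3) and 6.49 ± 0.68 (SD, n = 3), a difference of 2.08 or 4.22-fold. Within the first scan the difference was 2.06. It ranged from 1.73 without S2 to 2.41 without S1, and a different background correction (normexp) lowered it to 1.48, which is more than a 1.5-fold change of the fold. Over the 6 arrays the log2 signals of Dmbt1 and Lcn2 had a Pearson correlation of 0.96, a description that includes the strain difference itself.

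Reg3g and Reg3b encode small C-type lectins. The product of Reg3g kills Gram-positive bacteria by binding their cell wall, and Reg3b belongs to the same family. The genes lie in one cluster on chromosome 4, with Reg3a and Reg1a between them. Sequences upstream of the start were on hand for 6 of the 10 genes (Lcn2, Duox2, Reg3b, Reg3g, Pla2g2a and Pigr), from RefSeq on the GRCr8 assembly. The 120 bases before the start of Reg3b (chr4:112419656-112419775, plus strand) and of Reg3g (chr4:112484739-112484858, minus strand) are shown because S1 is the highest rat for both genes, and capitals mark the letters TATAAA.
Reg3b: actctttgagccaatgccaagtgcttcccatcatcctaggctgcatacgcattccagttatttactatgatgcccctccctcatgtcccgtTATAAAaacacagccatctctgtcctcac
Reg3g: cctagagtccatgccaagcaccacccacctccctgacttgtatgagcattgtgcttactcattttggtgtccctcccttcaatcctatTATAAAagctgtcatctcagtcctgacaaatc
In an alignment of the 250 bases before each start, 164 of 257 columns (63.8%) were identical between Reg3b and Reg3g, where the other 14 pairs among the 6 genes had 44.3% to 48.1%. TATAAA, searched on both strands, begins 29 bases before the start of Reg3b and 32 before that of Reg3g, and 12.9% of 33469 rat promoters hold it within 250 bases. A STAT motif (TTCNNNGAA, in 7.67% of promoters) lies 129 to 121 bases before Reg3b, and a kappa B motif (in 6.33%) 128 to 119 bases before Reg3g and 242 to 233 before Lcn2. Such matches describe letters only.

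The log2 signal of Reg3g was 8.72 (C1), 7.13 (C2) and 7.07 (C3), and 12.28 (S1), 5.04 (S2) and 9.84 (S3). The S strain held both the highest and the lowest rats, and all 6 arrays were well above background. S1 was 7.24 above S2, a 151-fold range within a strain, against 3.12-fold among the congenic rats. The means were 7.64 ± 0.93 (SD, n = 3) in the congenic and 9.05 ± 3.68 (SD, n = 3) in S rats, and the difference of -1.41 is smaller than the spread of the S rats. Single rats decided it, since it was 0.20 without S1, -1.02 without S3 and -3.42 without S2, and within the first scan it was -0.34.

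Reg3b was well above background in S1 only. Its log2 signal was 8.05 in S1, but 2.39 in S2 and 3.41 in S3, and 4.50, 3.38 and 2.77 in C1, C2 and C3, so that no difference between the strains can be given for it. In both genes S1 was the highest rat, and the order of the other rats in Reg3b is one of background readings. Between them on the chromosome, and named for that place, Reg3a had log2 signals from 5.46 (S1) to 6.47 (S3) that overlapped between the strains, and Reg1a was well above background on 1 array, that of S2. The high reading of S1 was thus not seen in those neighbors.

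**Figure D2:**
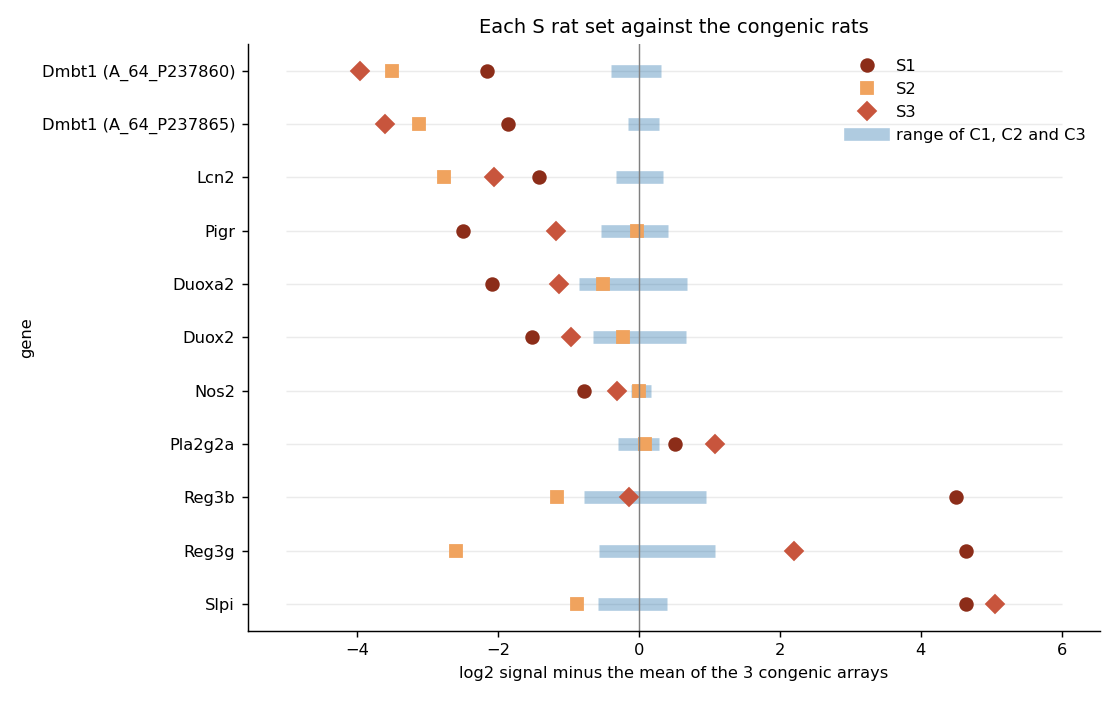
Log2 signal of S1, S2 and S3 at each of the 11 probes, minus the mean of the 3 congenic arrays (horizontal axis), with a bar for the range of the congenic rats. All S rats lie to the left of the bar at Dmbt1 and Lcn2, S2 lies on the bar at Pigr, Duoxa2, Duox2, Nos2 and Pla2g2a, and S1 and S3 lie to its right at Slpi and Reg3g.

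Pigr encodes the polymeric immunoglobulin receptor, which takes up immunoglobulin A at the base of epithelial cells and releases it into the gut. Its 120 bases before the start (chr13:44851062-44851181, plus strand) are shown because they hold an E-box, CACGTG, in capitals, a motif of 5.59% of promoters.
Pigr: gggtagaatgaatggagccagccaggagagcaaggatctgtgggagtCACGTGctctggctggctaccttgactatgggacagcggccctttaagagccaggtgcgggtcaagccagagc
The motif lies 73 to 68 bases before the start. Pigr had a log2 signal of 12.07 (C1), 11.77 (C2) and 11.11 (C3), and 9.16 (S1), 11.63 (S2) and 10.47 (S3). S1 and S3 were below all congenic rats, whereas S2 was between C2 and C3. The means were 11.65 ± 0.49 (SD, n = 3) and 10.42 ± 1.24 (SD, n = 3), a difference of 1.23 or 2.34-fold that is about the size of the SD of the S rats. It was 0.60 without S1, 1.83 without S2 and 1.65 within the first scan.

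Duox2 is an oxidase of the epithelial surface that releases hydrogen peroxide, and Duoxa2 is the factor without which it does not reach that surface. The genes are neighbors known to run in opposite directions from a shared stretch, and the 51 bases between their RefSeq gene models (chr3:129698887-129698937, minus strand, that of Duox2) are shown because their signals moved together. Capitals mark TATAAA read from the other strand.
Duox2 and Duoxa2: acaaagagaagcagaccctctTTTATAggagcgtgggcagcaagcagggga
The log2 signal of Duox2 was 11.30 (C1), 11.99 (C2) and 10.67 (C3), and 9.80 (S1), 11.10 (S2) and 10.36 (S3). That of Duoxa2 was 9.67, 10.17 and 8.64 in C1, C2 and C3, and 7.41, 8.98 and 8.36 in S1, S2 and S3. Both genes ranked the 6 rats in the same order, from C2 at the top to S1 at the bottom, and S2 was above C3. Their correlation over the 6 arrays was 0.99. Duox2 had means of 11.32 ± 0.66 (SD, n = 3) and 10.42 ± 0.65 (SD, n = 3), a difference of 0.90 or 1.86-fold, and Duoxa2 means of 9.49 ± 0.78 (SD, n = 3) and 8.25 ± 0.79 (SD, n = 3), a difference of 1.24 or 2.37-fold. The strains overlapped in both. Without S2 the differences were 1.24 and 1.61, and within the first scan 0.88 and 1.42.

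Nos2 encodes the inducible nitric oxide synthase of epithelium and macrophages. It varied least of the 10 genes, with log2 signals of 7.30 (C1), 7.36 (C2) and 7.58 (C3), and of 6.63 (S1), 7.41 (S2) and 7.10 (S3). S1 was the lowest rat here too, and S2 lay between C2 and C3. The means were 7.41 ± 0.15 (SD, n = 3) and 7.05 ± 0.39 (SD, n = 3), a difference of 0.37 or 1.29-fold that does not exceed the SD of the S rats, with 0.55 without S2 and 0.25 within the first scan. Over the 6 arrays Nos2 correlated at 0.83 with Pigr, 0.68 with Duoxa2 and 0.67 with Duox2, and Pigr at 0.92 with Duoxa2 and 0.89 with Duox2.

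Pla2g2a encodes the secreted group IIA phospholipase A2, an enzyme of Paneth cells and other secretory cells that breaks down bacterial membranes. It had log2 signals of 11.39 (C1), 11.68 (C2) and 11.09 (C3), and of 11.90 (S1), 11.48 (S2) and 12.47 (S3). S1 and S3 were above all congenic rats, and S2 was among them. The means were 11.39 ± 0.30 (SD, n = 3) and 11.95 ± 0.50 (SD, n = 3), a difference of -0.56 with all rats and within the first scan and of -0.80 without S2. The fold, 1.48 in favor of the S rats, is smaller than the range of the S rats themselves, which was 1.98-fold.

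Slpi encodes secretory leukocyte protease inhibitor, which blocks neutrophil elastase and also kills bacteria. Its log2 signal was 12.92 in S1 and 13.34 in S3, but 7.40 in S2, and 7.70 (C1), 8.45 (C2) and 8.68 (C3). S1 and S3 were above every other rat, and S2 was the lowest of all. The S rats spanned 61.3-fold and the congenic rats 1.98-fold. The means were 8.28 ± 0.51 (SD, n = 3) in the congenic and 11.22 ± 3.32 (SD, n = 3) in the S rats, so that the difference of -2.94 is within the spread of the S rats. It was -4.85 without S2, -2.09 without S1 and -1.88 without S3, and -3.52 within the first scan. Slpi correlated at 0.83 with Reg3g and 0.82 with Pla2g2a, and at -0.87 with Pigr.

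**Figure D3:**
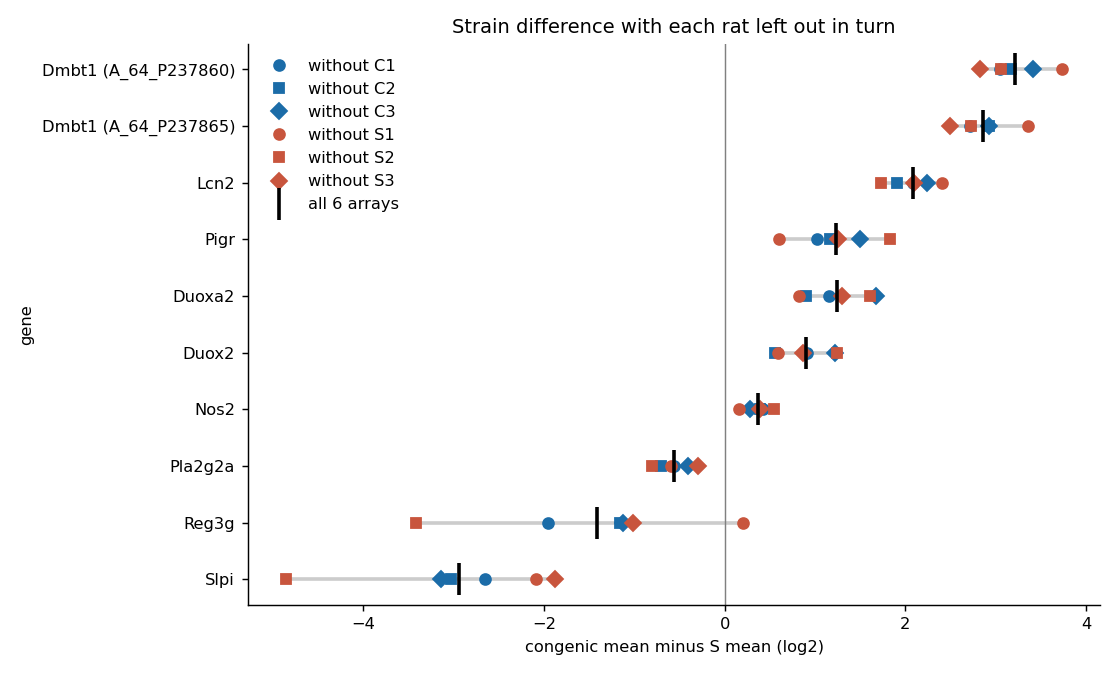
Congenic mean minus S mean on the log2 scale (horizontal axis) for the 10 probes that entered the comparison, with all 6 arrays (black tick) and after removal of each single rat (blue points without a congenic rat, red points without an S rat). Dmbt1 and Lcn2 stay above 1.5 in each case, Reg3g crosses 0 without S1, and leaving out S2 moves Reg3g to -3.42 and Slpi to -4.85.

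For 4 of the genes, those whose signal over the 6 arrays was most alike were looked up among 10756 other genes well above background on every array. Such a likeness over 6 arrays is a description. For Dmbt1 they were Sdcbp2 (r = 0.998), Lmx1a (r = 0.995) and Mgst1, a membrane-bound glutathione transferase (r = 0.994). Sdcbp2 had log2 signals of 10.48, 10.42 and 10.28 in C1, C2 and C3 and of 9.56, 9.15 and 9.06 in S1, S2 and S3, a smaller range than that of Dmbt1. Closest to Reg3g were Get3 (r = 0.995), C1d (r = 0.992) and Ogfr (r = 0.992), and of these Ogfr reached from 8.69 in S2 to 10.12 in S1. Closest to Nos2 were Runx1t1 (r = 0.998), Tjp1, which encodes a tight junction protein (r = 0.998), and Anks6 (r = 0.994). For Pigr they were Nagk (r = 0.995), Plcb3 (r = 0.994) and C15h8orf74 (r = 0.991), with Plcb3 between 10.24 and 10.73 in the congenic rats and at 9.23 (S1), 10.60 (S2) and 9.82 (S3).

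Markers of the cells that a colon sample can hold were read on the same arrays, as 12 lists of which some genes also stand in the pathway lists further on (Defa24, Np4, Mzb1 and Madcam1 among them). Lymphoid markers moved with Slpi and Reg3g. The 4 B cell markers measured, of 6, had a summed signal (not log-transformed) of 37391 in S1 and 25652 in S3, but of 1500 in S2 and of 1267, 1116 and 1115 in C1, C2 and C3. Their brightest gene on average, Pax5, did not follow, with 10.04 in S1, 9.77 in S3, 10.47 in S2 and 9.98 to 10.26 in congenic rats, while Cd79b and Cr2, named after their values were seen, were well above background in S1 and S3 only. All 7 T cell markers were measured, with sums of 10377 in S1, 11147 in S3, 1611 in S2 and 1814, 1259 and 1218 in C1, C2 and C3, and Cd3d was the brightest. The 5 genes of lymphoid stroma, with Ccl21 the brightest, summed to 67882 in S1, 49612 in S3, 6468 in S2 and 2613, 1701 and 5122 in C1, C2 and C3. The 10 macrophage markers, with C1qb the brightest and Marco below background on all arrays, summed to 21537 in S1, 17325 in S3, 5635 in S2 and 6747, 8752 and 9638 in C1, C2 and C3. At the cut-offs described below, 1 of 2 tested B cell, 3 of 5 T cell, 3 of 5 lymphoid stroma and 1 of 9 macrophage genes had a call for lower signal in congenic rats, and 2 macrophage genes higher. S1 and S3 thus held the highest sums of lymphoid markers along with the highest Slpi and Reg3g, and the part of the lymphoid cells in those values was not tested.

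Neutrophil, Paneth cell and plasma cell lists differed in their order of the rats. Of 10 neutrophil markers 9 were measured, with Elane the brightest and Prtn3 and Ctsg below background everywhere, and their sums lay between 404 (C3) and 1038 (S3) with 0 of 6 tested genes called. Genes of Paneth cells, which are secretory cells of the epithelium, 5 measured of 5 with Defa24 the brightest, had sums of 2203 in S1 and between 476 (S3) and 913 (S2) elsewhere, and 1 of 4 tested genes was called lower, Np4, a defensin that neutrophils also make. The mean of their log2 signals was high in S1 alone, at 1.62 above its mean over the arrays and at most 0.20 above it in any other rat. It rested on Mmp7 (9.88 in S1), RatNP-3b (7.36) and Np4 (6.67), named after their values were seen. Defa24 differed little between S1 (9.95) and S2 (9.61), and Defa5 was not well above background in S1, so the genes of the list did not move as a set. S1 was also the rat with the highest Reg3g and Reg3b, and a part of Paneth cells in that was not tested. Plasma cell genes, 5 measured of 6 with Sdc1 the brightest, had sums of 9957, 10764 and 9333 in C1, C2 and C3 and of 6266, 6986 and 6664 in S1, S2 and S3. These sums are mostly Sdc1, which is also a gene of epithelial cells. The mean log2 signal of the list ran the other way, at 0.93 in S1 and 1.40 in S3 relative to its mean over the arrays, but at -0.45 in S2, -0.98 in C1, 0.13 in C2 and -1.03 in C3. The difference was below 0 for 4 of its 5 genes, and 2, both at higher signal in S1 and S3, had a call for lower signal in congenic rats.

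General epithelial markers had log2 fold changes above 0, as Dmbt1 and Lcn2 did, but markers of single epithelial cell types were mixed. All 6 general markers were measured, Krt19 the brightest, with sums of 117876 in C1, 107657 in C2 and 70077 in C3, and of 44391 (S1), 66886 (S2) and 61429 (S3). None was called, and the median of their log2 fold changes was 0.74, against 3.21 for Dmbt1 and 2.08 for Lcn2. The 7 genes of absorptive cells, Car1 the brightest, summed to 95564, 64217 and 74575 in C1, C2 and C3 and to 32055, 24061 and 21033 in S1, S2 and S3, with 3 of 7 called higher. The difference between the sums rests largely on Car1, which read 14.98 to 15.81 in congenic and 10.89 to 13.73 in S rats. Aqp8 of the same list, chosen after its values were seen, went the other way, with 7.24 to 8.00 in congenic and 8.52 to 8.88 in S rats. Goblet cell genes, 6 measured of 7 with Spdef the brightest, summed to 16477, 19536 and 16452 in C1, C2 and C3 and to 9303, 12992 and 8285 in S1, S2 and S3, with 1 of 6 called higher. Of the 6, 2 had a log2 fold change below 0, and Tff3, Clca1 and Fcgbp, named after their values were seen, were highest in S2. Whether the amount of epithelium has a part in the values of Dmbt1 and Lcn2 was not tested.

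In muscle and stroma S1 was lowest, as in Pigr, Duox2, Duoxa2 and Nos2, and also in the general epithelial markers. The 5 smooth muscle genes, Myh11 the brightest, summed to 352673, 373227 and 406740 in C1, C2 and C3, 102536 in S1, 439773 in S2 and 225736 in S3. The 6 stromal genes, Col3a1 the brightest, summed to 35023, 39289 and 52404 in C1, C2 and C3, 19273 in S1, 61832 in S2 and 28239 in S3. No gene of either list was called. S2 had the highest sum in both lists, although on the mean log2 signal of the stromal genes C3 was higher (0.64 against 0.52 above the mean over the arrays). Their part in the order of the S rats was not tested.

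**Figure D4:**
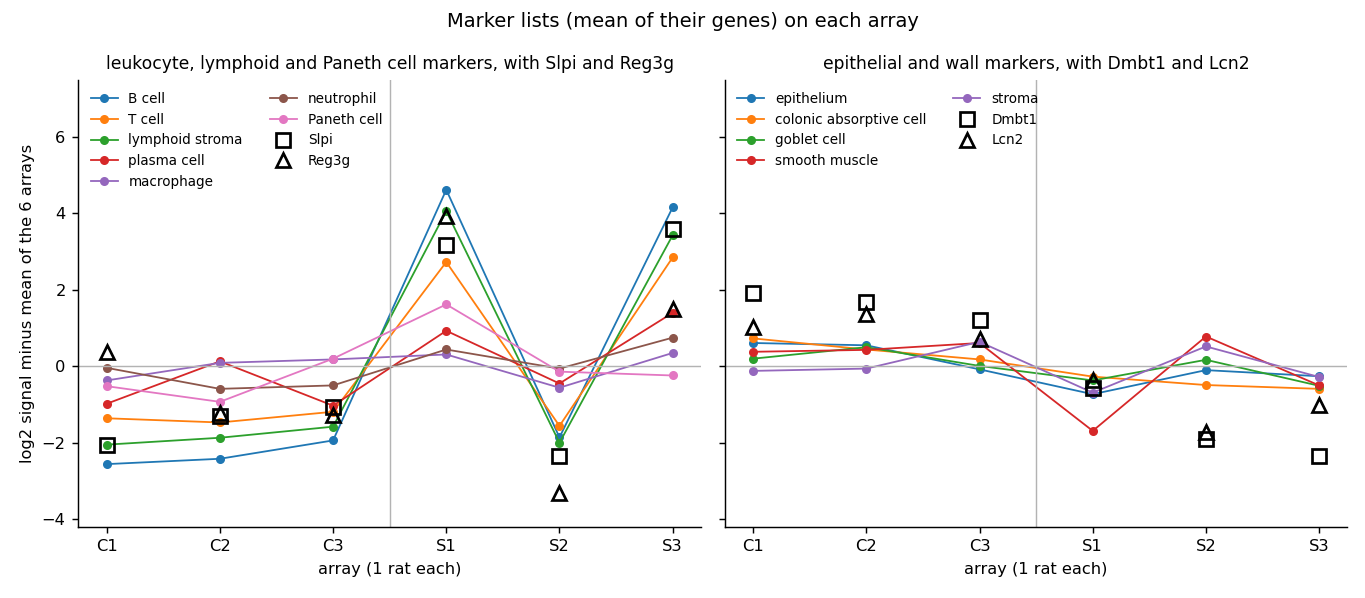
Mean log2 signal of each marker list on each array, minus its mean over the 6 arrays (vertical axes), with Slpi and Reg3g (left) and Dmbt1 and Lcn2 (right) as open symbols on the same scale. Lines join the points of a list and imply no order of the rats. B cell, T cell and lymphoid stroma lists are high in S1 and S3 and low in S2, as Slpi and Reg3g are.

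To set the 10 genes among others of their pathways, 153 further genes in 7 lists were compared between the strains with limma, which borrows information on the variance across probes. A gene was called at the cut-offs of the study's methods, p below 0.05 before adjustment and at least 2-fold, on its brightest probe. After Benjamini-Hochberg adjustment limma called no probe at an adjusted p under 0.05 (smallest 0.101), with 3108 probes under 0.05 before adjustment, and the methods' t-test called none either, with 2585 before adjustment. With all 6 rats and quantile normalization no call therefore passes a correction for the number of probes. Scaling to the 75th percentile gave 1 probe an adjusted p under 0.05 with limma (0.0483). Of the 153 genes 108 were tested. Another 24 had probes below the filter on dim signals, and 21 had no probe matched by accession. Among the 24 were the inducing cytokines Il22, Il17a, Il17f and Il6, none of which was well above background on a congenic array. Of the S arrays, 2 read Il17a, 2 read Il6, 1 read Il22 and 0 read Il17f well above background.

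Of the 108 tested genes, 9 (8.33%) had a call for higher and 10 (9.26%) for lower signal in congenic rats, beside 3.79% and 2.63% of all 12396 genes. The lists were drawn up with earlier results of these data known, so nothing is read from a share above that of all genes. Retnlb, Np4 and Spink1, among the 10, were above background in S rats only, so they entered the test through the strain in which they were higher, and a call for them could hardly go the other way. With probes above background on all arrays 5 genes were called lower. The median log2 fold change of the 108 was -0.05 and that of all genes 0.03. Without S2 the calls were 11 (10.2%) higher and 25 (23.1%) lower, beside 11.3% and 8.26% of all genes, and 8 of the 11 and 10 of the 25 had also been called with all rats. Limma then gave 39 of the 108 genes an adjusted p under 0.05, and 3193 of all 12396. S2 was left out because these same arrays showed it close to the congenic rats, a choice that favors calls. It leaves S1 and S3, with the highest sums of lymphoid markers, as the whole S group. Nothing is therefore read from the counts without S2. C1 against the S rats of its scan leaves 1 congenic rat, so no calls are counted here for that setting. Of the 19 calls made with all rats and no block, 2 were kept with the scan as a block (Retnlb and Nlrp6) and 9 with the methods' t-test. With each rat left out in turn 7 were kept (Retnlb, Chi3l1, Cfb, Nox1, Ddah1, Spink1 and Nlrp6). Of these, Chi3l1, Cfb, Ddah1, Spink1 and Nox1 lost the call with the scan as a block. The log2 fold change then moved little for Chi3l1 (-2.65, from -2.55), Ddah1 (1.30, from 1.36) and Nox1 (1.76, from 1.84). That of Cfb fell from 1.25 to 0.88. Within the first scan these values were the same, as both settings set C1 against the S rats. For Retnlb and Spink1 the calls compare S rats with background readings. Nlrp6 kept its call in all 16 alternatives run for single genes. Retnlb kept its call in all 15 that could be run for it, as the filter on all arrays removes its probe.

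**Figure D5:**
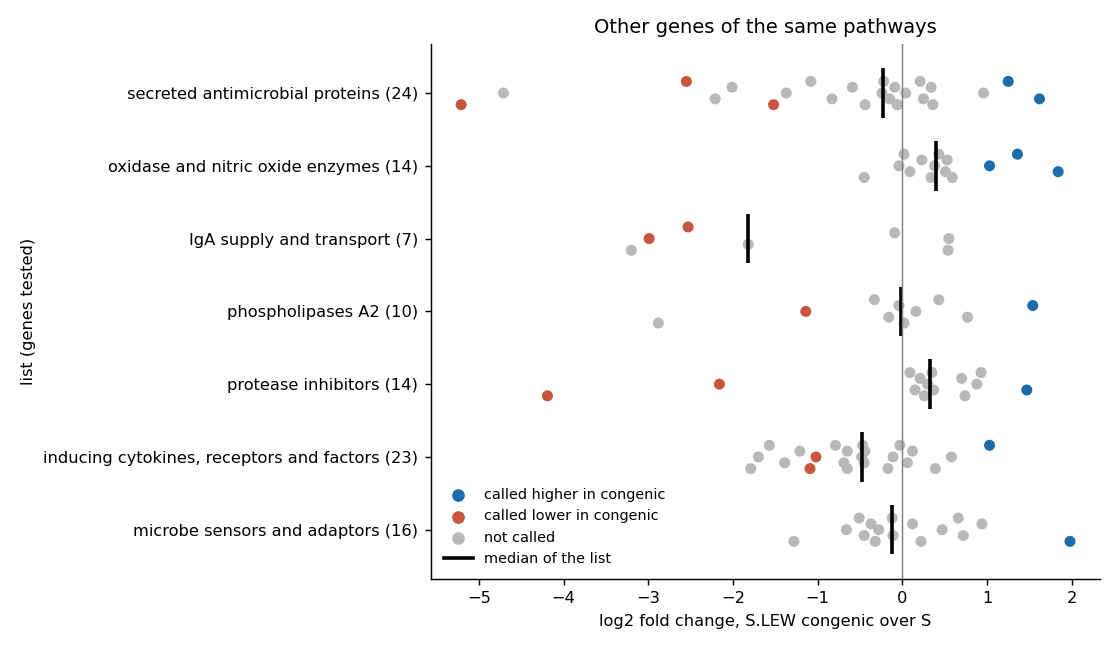
Log2 fold change, S.LEW congenic over S (horizontal axis), of the 108 tested genes of the 7 lists, with 1 point per gene, blue where called higher, red where called lower and gray where not called, and a black line at the median of each list. All 3 called genes of the oxidase and nitric oxide list are higher in the congenic rats, and both called genes of the immunoglobulin A list are lower.

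Among 24 secreted antimicrobial genes, 2 were called higher and 3 lower, with a median of -0.23. Without S2 2 were called higher and 5 lower, with a median of -0.09. Retnlb, a goblet cell protein that acts on Gram-negative bacteria, had log2 signals of 6.91 (S1), 10.32 (S2) and 8.95 (S3). It was not well above background in any congenic rat and so was at least 12.8-fold lower there, a bound taken from the lowest signal well above background on each array, or at least 24.0-fold without S1 and 7.37-fold without S2. The bound was taken with the background correction of the scanner software and is given for that correction only. With normexp the log2 fold change itself was -2.59, a smaller difference than the bound. Normexp was run with an offset of 50 added to every intensity, which shrinks the differences of dim probes, so that value does not test the bound. Chi3l1, a chitinase-like protein, read 9.46 (S1), 6.62 (S2) and 9.22 (S3), and 5.78 to 5.99 in congenic rats, a log2 fold change of -2.55 (SE 0.74) that was -3.46 without S2. Np4, a defensin below background in all congenic rats, was at least 1.33-fold lower with all rats, but without S1 no lower signal can be bounded, and its call ended without S1, C2 or C3. Cfb, complement factor B, was higher, with 8.78, 9.27 and 9.38 in C1, C2 and C3 against 7.81, 8.20 and 7.68 in S1, S2 and S3, a log2 fold change of 1.25 (SE 0.25) that was 0.88 within the first scan. Reg4, a relative of Reg3g, had one of 1.62 (SE 0.61), with S1 at 7.60 above C1. Its call was kept only without S1 (2.33) and ended with any other rat left out, the value then lying between 1.23 without S3 and 1.80 without C1. Retnlb is in this list and not among the 10 genes, and its S2 reading was the highest of all rats, unlike Slpi and Reg3g.

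The oxidase and nitric oxide list had 3 genes called higher and 0 lower of 14, with 12 of the 14 above 0 and a median of 0.40. Nox1, the NADPH oxidase of colon epithelium, read 8.80 (C1), 9.94 (C2) and 7.90 (C3) against 7.13, 6.95 and 7.04 in S1, S2 and S3. All congenic rats were higher, and the S rats differed little, for a log2 fold change of 1.84 (SE 0.49). Its activator Noxa1 had one of 1.03 (SE 0.32), and its call ended without S3 (0.72) and without C3 (0.97). Ddah1, which breaks down natural inhibitors of nitric oxide synthases, had one of 1.36 (SE 0.40) at its brighter probe and of 0.37 (SE 0.16) at a dimmer one. Unlike Duox2, none of these 3 had S2 within the congenic range.

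In the list for immunoglobulin A supply and transport, 0 of 7 genes were called higher and 2 lower, with a median of -1.82. Without S2 3 were called lower and the median was -3.10. Madcam1, the vessel protein by which lymphocytes enter the gut, read 10.73 (S1), 6.05 (S2) and 10.05 (S3) but 5.53 to 6.44 in congenic rats. Its log2 fold change of -2.99 (SE 1.18) was -4.44 without S2, and the call ended with any other rat left out, with -2.10 without S1 at the other end. Mzb1, a chaperone of antibody-secreting cells, read 8.90 (S1), 5.61 (S2) and 8.71 (S3) but 5.10 to 5.35 in congenic rats (2 of them well above background). Its log2 fold change was -2.53 (SE 0.86), with -3.59 without S2, and the call ended without S1 (-1.95), S3 (-2.04), C1 (-2.52) or C3 (-2.47). Both genes also stand in marker lists, Madcam1 in that of lymphoid stroma and Mzb1 in that of plasma cells, and like the B cell, T cell and lymphoid stroma lists they were high in S1 and S3, where Pigr was low. The part of such cells in their values was not tested.

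Of 10 phospholipase A2 genes 1 was called higher and 1 lower, with a median of -0.01. Without S2 1 was called higher and 2 lower, with a median of -0.03. Pla2r1, the receptor for secreted phospholipases, had a log2 fold change of 1.54 (SE 0.50) and of 1.60 (SE 0.56) at a dimmer probe. The call at the brighter probe ended without S1 (1.15), S3 (1.37) or C3 (1.36). Pla2g2f, a secreted relative of Pla2g2a, had one of -1.14 (SE 0.41), and the call was kept only without S2 (-1.59) or C1 (-1.27), with -0.86 without S1, -0.97 without S3, -1.04 without C2 and -1.09 without C3.

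Among 14 protease inhibitors 1 was called higher and 2 lower, with 12 above 0 and a median of 0.33. Without S2 2 were called higher and 2 lower, with a median of 0.46. A2m, the broad protease trap alpha-2-macroglobulin, resembled Slpi, with log2 signals of 11.71 in S1 and 10.84 in S3, 6.30 in S2 and only 4.90 to 6.06 in congenic rats (2 of them well above background). Its log2 fold change was -4.19 (SE 1.36) and -4.62 (SE 1.38) at its 2 probes. At the brighter it was -5.85 without S2, and the call ended without S1 (-3.14), S3 (-3.58) or C1 (-3.93). Spink1, a trypsin inhibitor, was well above background in all S and no congenic rats, but its difference can be given no bound, as the S signals, 3.85 to 5.56, lay near the lowest measurable ones, and its call ended with normexp. Wfdc1, of the same protein family as Slpi, went the other way with 1.47 (SE 0.54). That call was kept only without S2 (2.09) and ended with any other rat left out.

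Of 23 cytokines, receptors and factors that induce such genes, 1 was called higher and 2 lower, with 18 below 0 and a median of -0.48. Without S2 10 of the 23 were called lower. The mean of the list was high in S1 (0.66 above its mean over the arrays) and S3 (0.57) and low in S2 (-0.41), as in the B cell, T cell and lymphoid stroma lists, whose part in it was not tested. Il17re, a receptor chain for interleukin 17C, had a log2 fold change of 1.03 (SE 0.27), and the call ended without S1 (0.92) and without S3 (0.86). Il17ra, the chain shared by the interleukin 17 receptors, had one of -1.09 (SE 0.41) and the kinase Jak1 one of -1.02 (SE 0.35). Both calls were kept only without S2, at -1.54 and -1.41, and ended with any other rat left out, at -0.81 and -0.75 without S1. Under scaling to the 75th percentile Jak1 was at -0.98, just short of 2-fold.

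Of 16 microbe sensors and adaptors, Nlrp6 was called higher and none lower, with a median of -0.12, but without S2 2 were called higher and 3 lower. Nlrp6, a sensor of the intestinal epithelium, read 11.88 (C1), 11.77 (C2) and 11.41 (C3) against 9.83, 9.88 and 9.42 in S1, S2 and S3. The rats of a strain were close to each other and the strains did not overlap, with a log2 fold change of 1.98 (SE 0.22, adjusted p = 0.193 from limma), or 3.94-fold. It was 2.17 within the first scan and stayed from 1.83 to 2.12 whichever rat was left out. S2 was at the level of S1 and S3.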

How the data were processed

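Colon RNA of 3 S.LEW congenic and 3 S rats was read on 1 Agilent array each. The authors extracted spot values with Agilent Feature Extraction 11.0.1.1, and the deposited scanner files hold background-corrected intensity values that are not normalized. The authors also deposited a table of quantile-normalized log2 values, used as an alternative. Other deposited columns, counted here as other values, are probe names and flags.

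Control spots and spots flagged as outliers were left out. Log2 intensities were averaged over the spots of a probe and then quantile-normalized between arrays. The 23971 of 30367 probes that 3 or more of 6 arrays read well above background were tested with limma 3.58.1 in R 4.3.3 (lmFit, eBayes), without covariates. The p values were adjusted over all these probes by Benjamini-Hochberg. limma was tested on simulated data. Plots were drawn with matplotlib 3.10.9.

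Probes were named by accession through RefSeq genes of GRCr8 (18006 named, 1 of them through Ensembl), and genes with several probes were read at the brightest. The genes named in the text are all 10 members, up to 3 called genes per pathway list and direction, the 3 genes most alike to each of 4 members, and the brightest and the undetected genes of each marker list. Reg3a and Reg1a were added for their place, and a few others, as said there, after their values were seen. Members and lists were chosen with earlier results of these data known. Alternatives were another scaling, the deposited values, other filters, the methods' t-test, the replicate number or the scan as a block, kept outlier spots, normexp (offset 50), the mean of a gene's probes and each rat left out.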

Additional observations from a re-analysis of the deposited data

How the results depend on the processing

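With the methods' t-test, 514 probes were called higher and 172 lower, in place of 775 and 563, and 3 defence genes lower in place of 10. The scan as a block left 225 probes lower, 4 defence genes higher in place of 9 and 1 lower. Within the first scan, where C1 is assumed to vary like the S rats, 443 probes were higher and 188 lower, with 5 defence genes higher and 1 lower. Normexp gave 359 probes higher and 376 lower. With probes above background on all arrays, 342 probes and 5 defence genes were lower. Fewer arrays or probes, or the offset of normexp, are built into some of these settings, and otherwise the cause was not tested. With each rat left out in turn, probes called higher ranged from 476 (without S3) to 2399 (without S2), probes called lower from 186 (without S3) to 1725 (without S2), defence genes higher from 4 to 11 and lower from 5 to 25. Scaling to the 75th percentile called 692 probes higher and 760 lower, so that, as with normexp, the larger share was then the lower one. With limma the adjusted p was under 0.05 for 1 probe under that scaling, 41 without S1 and 5562 without S2. The counts without S2 carry the limit given above, as S2 was picked out on these same arrays. The other alternatives kept these counts within 1.5-fold.

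Whether replicate numbers follow the shared cages is not known. The deviations of rats with one number from their strain means correlated at -0.02, -0.13 and -0.06. Taken over whole arrays and from means of 3 rats, these values cannot decide it. With the replicate block 791 probes were called higher and 743 lower, and 9 and 13 defence genes.

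None of the 19 called defence genes changed direction in the alternatives run for it. The filter on all arrays removes 5 of them (Np4, Retnlb, Mzb1, Spink1 and A2m), and the mean of the probes of a gene was run for counts only. Reg3a and Defa24, named but not called, changed direction. Reg3a went from 0.25 to -0.06 within the first scan and -0.01 without S1, and Defa24 from -0.06 to 0.02 within the first scan, 0.27 without S1, 0.11 without C2 and 0.10 without S2. Of the 10 genes, Reg3g changed direction without S1. Normexp moved the folds of dim genes by over 1.5 times, with log2 fold changes of -2.59 for Retnlb, -0.52 for Spink1, -0.45 for Np4, 0.96 for Reg4, -1.81 for Chi3l1, -1.57 for Mzb1, -2.27 for Madcam1 and -3.02 for A2m. The offset of 50 that normexp adds to every intensity shrinks the folds of dim probes. How much of these moves it accounts for was not tested.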

Other observations

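A few genes outside the naming rule are given as values, chosen after their values were seen. Mptx1, which encodes a mucosal pentraxin, had log2 signals of 13.18 in S2 and 12.22 in S3, but 6.57 in S1 and 7.03, 8.40 and 2.40 in C1, C2 and C3. Itln1, an intelectin that binds bacterial sugars, likewise read 14.50 in S2 and 13.43 in S3, against 11.92 in S1 and 11.75 to 12.09 in the congenic rats. In both, as in Retnlb, S2 was the highest rat. Lyz2, a lysozyme, was at 15.66 in S1 and 15.20 in S3, but at 11.62 in S2 and between 11.68 and 12.19 in the congenic rats, an order close to that of Slpi. The sensors Tlr7 (8.71 in S1 and 7.82 in S3) and Nlrp3 (6.62 and 5.81) and the neutrophil collagenase Mmp8 (8.80 and 7.88) were well above background in S1 and S3 and in no other rat.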
